A study of Mus musculus with 11 samples.

Results

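The ligands, receptors and TRAF adaptors of the tumor necrosis factor (TNF) family were examined in 5 samples of the hyperplasia line PN1a and 6 of the line PN1b. Members were the probe sets annotated to 1 gene whose symbol is that of a numbered TNF superfamily ligand, TNF receptor or TRAF, or is Tnf, Lta, Ltb, Ltbr, Cd40, Cd40lg, Cd27, Cd70, Fasl or Ngfr. The rule found 39 of 12422 tested probe sets, for 31 of 8251 named genes, comprising 11 ligand, 14 receptor and 6 adaptor genes. No probe set of Ngfr was matched, and Traf3ip2 entered through its symbol although it encodes an adaptor of interleukin signaling that binds TRAF proteins.

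PN1a and PN1b are lines of ductal hyperplasia that arose on opposite sides of 1 mouse after transplantation of p53-null mammary epithelial cells, and both are kept by serial transplantation into cleared fat pads of young female wildtype Balb/c hosts. All glands were taken 8 weeks after transplantation, so every sample combines p53-null outgrowth with the host's own stroma, vessels and immune cells. PN1a has the high and PN1b the low tumor-forming potential, and the comparison asks which genes separate them while both are still hyperplasias. Each line is 1 outgrowth, and nothing in the labels says that each sample came from a separate mouse. Ranges of numbers in the titles of PN1b 1 to PN1b 4 may mean pooled mice. p-values therefore measure the spread between these samples, which may be technical.

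TNF family ligands are mostly made as trimers on the cell surface and bind receptors with cysteine-rich outer domains. Receptors with a death domain can start caspase cleavage, while others recruit TRAF adaptors, which lead to the kinases that free NF-κB, a transcription factor of inflammatory genes. In the mammary gland the ligand RANKL (Tnfsf11), its receptor RANK (Tnfrsf11a) and the soluble decoy osteoprotegerin (Tnfrsf11b) relay progesterone signals between epithelial cells, and TNF itself is released mainly by macrophages.

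Values are log2 of the deposited Affymetrix intensity, on which the lowest value of the table is 0. Among the members, 2 probe sets had a sample at that value, Tnfsf10 in PN1a 2 and Cd40lg in PN1b 2. Within PN1a a pair of glands stood apart from the rest. PN1a 1 and PN1a 2, whose titles are plain numbers and which are called the numbered glands, had an intensity of 18S ribosomal RNA of 195 and 276 against 5.39 to 17.6 in the other samples, and their Fos, an immediate early gene, was at 4.02 and 3.87 against 7.94 to 9.29 (log2). Of the markers of mammary epithelium, none of 7 luminal and 5 basal probe sets was at the lowest value in any sample. Being above it does not show presence, and the basal keratin Krt14 was at 0.01 in PN1a 3. One probe set of the luminal keratin Krt18 had 6.19 to 9.35 in PN1a and 9.32 to 9.87 in PN1b. Since glands were lysed whole, fewer cells of a type and less RNA per cell cannot be told apart.

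The following promoter stretches are shown because they belong to members with contrasting patterns across these samples, TNF and lymphotoxin beta, which are direct neighbors on chromosome 17, and the T cell costimulator 4-1BB (Tnfrsf9). Each is the 250 bases before a transcription start in RefSeq (GRCm38.p6), written 5′ to 3′ along the gene, with matches in capitals. The letters searched on both strands were GGG, any 2 bases and TTTCC (an NF-κB type site), TGANTCA (AP-1, which reads alike on both strands) and TATAAA, of which no match overlapped another here.
Tnf (chr17:35202008-35202257, minus strand): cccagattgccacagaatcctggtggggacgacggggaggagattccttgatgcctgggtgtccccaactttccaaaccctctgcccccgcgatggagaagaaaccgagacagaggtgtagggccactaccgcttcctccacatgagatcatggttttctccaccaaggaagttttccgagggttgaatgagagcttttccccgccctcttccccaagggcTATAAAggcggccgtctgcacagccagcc
Ltb (chr17:35194257-35194506, plus strand): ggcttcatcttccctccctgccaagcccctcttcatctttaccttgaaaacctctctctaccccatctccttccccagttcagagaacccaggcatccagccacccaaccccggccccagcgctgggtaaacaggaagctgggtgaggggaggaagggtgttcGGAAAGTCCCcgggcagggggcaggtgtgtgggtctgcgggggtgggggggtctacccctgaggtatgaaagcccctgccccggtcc
Tnfrsf9, second listed start (chr4:150927749-150927998, plus strand): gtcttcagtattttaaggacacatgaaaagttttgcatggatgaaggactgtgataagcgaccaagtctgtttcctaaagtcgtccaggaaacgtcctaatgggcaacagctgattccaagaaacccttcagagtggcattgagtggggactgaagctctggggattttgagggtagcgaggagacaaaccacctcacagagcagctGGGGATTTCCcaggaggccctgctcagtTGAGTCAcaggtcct
In Tnf the capitals mark TATAAA, which stands in 12.4% of the 250 bases before all 32851 listed starts. In Ltb they mark an NF-κB type site on the opposite strand, letters that stand in 1.41% of such stretches, and in Tnfrsf9 the same site and an AP-1 site, present in 6.75%. The first listed start of Tnfrsf9, not shown, held no match. Of the 26 starts listed for 24 member genes, 2 hold the NF-κB type letters, those of Ltb and Tnfrsf9, and 2 hold the AP-1 letters, those of Tnfrsf8 and Tnfrsf9. A match is a description of the sequence and was not tied to the values below.

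In the comparison of PN1a with PN1b, 1 member fell, the receptor Tnfrsf19, and no member rose. A probe set was called at an adjusted p under 0.05 (limma, Benjamini-Hochberg over 12422 probe sets) with a fold change of at least 1.5. Over all probe sets 1.62% were called lower in PN1a and 0.869% higher, so 1 of 39 members is near the background share. No member separated the groups completely, against 1.58% of all probe sets with every PN1a sample above every PN1b sample and 2.38% with every one below. At an unadjusted p under 0.05 there were 5 members, all of them named below, and 18.9% of all probe sets. The median log2 fold change was -0.10 over the members and -0.01 over all probe sets, and 16 of 39 members were above 0 against 48.6% of all. It was 0.11 over ligands, -0.14 over receptors and -0.12 over adaptors. For 23 members the difference was within 0.25 of 0 on the log2 scale. For 26 its 95% interval lay between -1 and 1, which leaves out changes of 2-fold or more in the intensity. By mean level 24 of the 39 members, with 11 of 12 ligand probe sets among them, were below the median of all probe sets. Detection calls were not used, so for these a 2-fold change of the transcript is not left out.

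**Figure D1:**
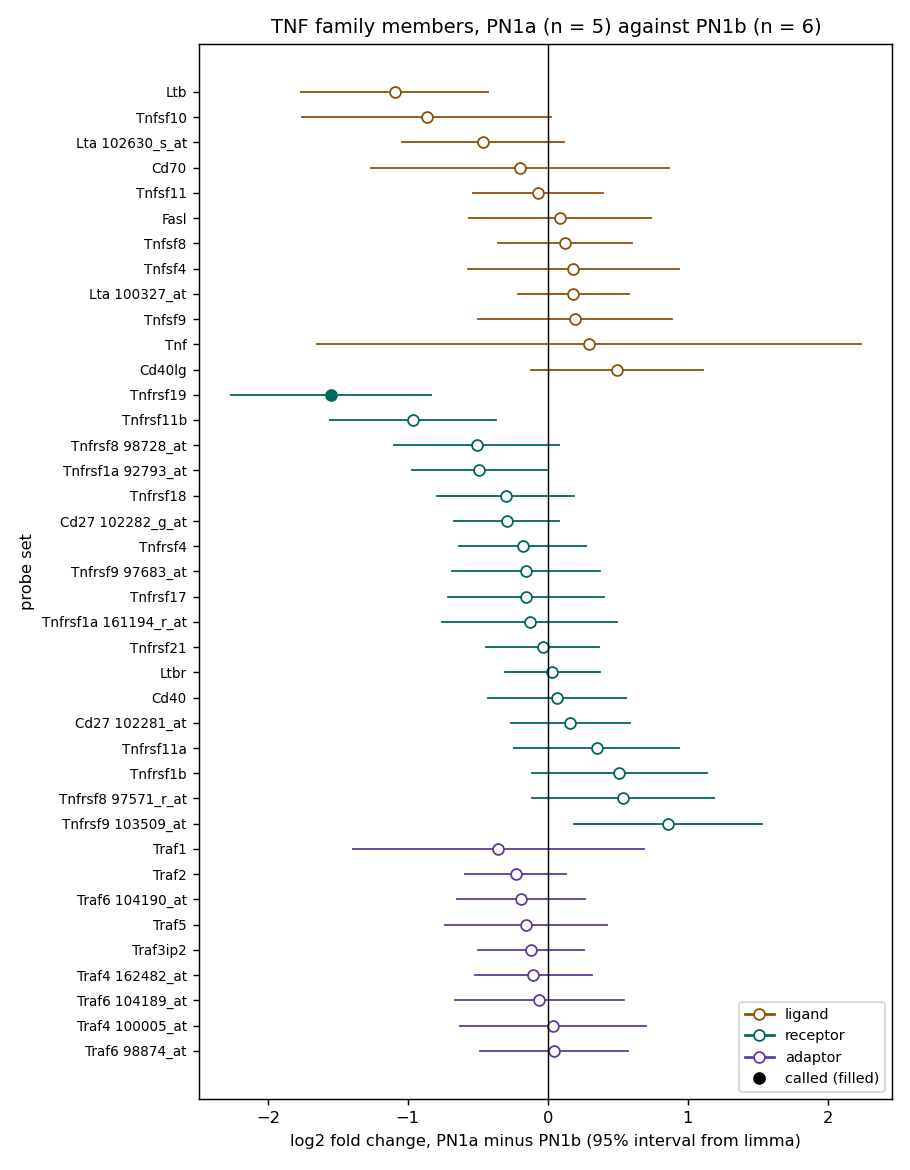
The difference of PN1a from PN1b on the log2 scale (x axis) for the 39 member probe sets (y axis), with 95% intervals from limma; ligands are brown, receptors green and adaptors purple, and a filled point is a called probe set. Only Tnfrsf19 is filled, at -1.55, and the interval of Tnf is the widest, from -1.65 to 2.24.

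Tnfrsf19 (TROY), an orphan receptor of the family known from hair follicle, neural and intestinal progenitor cells, was lower in PN1a. Its log2 intensity was 1.42, 0.44, 0.52, 0.51 and 1.77 in PN1a 1 to PN1a 5, and 2.89, 2.74, 2.21, 2.39, 1.49 and 3.17 in PN1b 1 to PN1b 6. The groups overlapped through PN1a 5 and PN1b 5 alone. The means were 0.93 ± 0.62 (SD, n = 5) and 2.48 ± 0.60 (SD, n = 6), a 2.93-fold difference (log2 fold change -1.55, SE 0.33, adjusted p = 0.0291 from limma). The PN1a values were close to the lowest of the table, and with log2(value + 16) the log2 fold change was -0.28 (adjusted p = 0.0596 from limma). Leaving out 1 sample at a time kept the call for PN1a 1, PN1a 5, PN1b 5 and PN1b 6, and lost it for PN1a 2, PN1a 3, PN1a 4 and PN1b 1 to PN1b 4 (limma, adjusted p from 0.0584 to 0.0764). Without both PN1a 1 and PN1a 2 the log2 fold change was again -1.55 (adjusted p = 0.0833 from limma).

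The basal epithelial gene Trp63 was also lower in PN1a, by -1.55 on the log2 scale (SE 0.33, limma adjusted p = 0.0262), and its groups did not overlap. It was the called 1 of 5 basal probe sets, none of which was above 0, and their median was -0.39. Their summed intensity ran from 456 to 819 in PN1a and from 704 to 1289 in PN1b. The part of basal cell content in the Tnfrsf19 result was not tested.

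Osteoprotegerin (Tnfrsf11b), the secreted decoy receptor that captures RANKL and TRAIL, had values of 5.15, 4.82, 5.32, 4.87 and 4.75 in PN1a 1 to PN1a 5. In PN1b 1 to PN1b 6 they were 5.76, 5.44, 5.26, 5.85, 6.70 and 6.66. Every PN1a sample but PN1a 3 lay below every PN1b sample, and PN1b 5 and PN1b 6 stood above the other PN1b samples. The means were 4.98 ± 0.24 (SD, n = 5) and 5.95 ± 0.61 (SD, n = 6), a 1.95-fold difference that did not pass (log2 fold change -0.96, SE 0.28, adjusted p = 0.0810 from limma).

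The endings of the sample titles, which no source used here explains, divide the samples in 3. The first ending holds all PN1a samples with PN1b 5 and PN1b 6, and the others hold only PN1b. With the title ending as a block Tnfrsf11b was called lower in PN1a, with a log2 fold change of -1.70 (adjusted p = 0.0193 from limma), and within the first ending the same difference gave an adjusted p of 0.0690 from limma. Both differences set PN1a against PN1b 5 and PN1b 6 alone, the highest Tnfrsf11b samples at 6.70 and 6.66. Tnfrsf19 had -1.40 in both settings and was not called (adjusted p = 0.431 with the block and 0.671 within the ending, from limma). PN1b 5 and PN1b 6 lay both above the other PN1b samples in 7 of 39 members, against 11.7% of all probe sets, and both below them in 4, against 14.8%.

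The partners of osteoprotegerin did not pass. Tnfsf11, the cytokine RANKL, was at 1.48, 1.22, 1.77, 1.25 and 1.47 in the PN1a samples and 0.93 to 1.93 in PN1b with a median of 1.69. Its log2 fold change was -0.07 with a 95% interval of -0.53 to 0.40, and the groups overlapped fully. RANK (Tnfrsf11a) had 2.25 and 2.33 in PN1a 1 and PN1a 2, and 3.70, 3.51 and 3.07 in PN1a 3 to PN1a 5. Its PN1b samples ran from 2.32 to 2.99 with a median of 2.58, so PN1a 3 to PN1a 5, called the lettered glands after their titles, were above all of them. Over all samples the log2 fold change of RANK was 0.35 (SE 0.27, adjusted p = 0.529 from limma), and without PN1a 1 and PN1a 2 it was 0.81 (SE 0.21, adjusted p = 0.0977 from limma). Of 16 probe sets of 11 measured genes of the RANK and hormone pathway in the mammary gland, none was called in either direction and the median was 0.09. The estrogen receptor Esr1 had 0.75 (adjusted p = 0.114 from limma), 0.18, -0.09 and -0.19 in its 4 probe sets. The milk protein Csn2 had 1.29, and 2.19 without the numbered glands (adjusted p = 0.288 and 0.109 from limma), and the transcriptional inhibitor Id2 had -0.47.

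Lymphotoxin beta (Ltb), the membrane partner of lymphotoxin alpha that organizes lymphoid tissue and is made by lymphocytes, had 2.54, 2.28, 2.85, 2.31 and 2.64 in PN1a 1 to PN1a 5. In PN1b it ran from 2.75 to 4.81 with a median of 3.46. Only PN1a 3 and PN1b 3 overlapped, and PN1b 1 was the highest. The means were 2.52 ± 0.24 (SD, n = 5) and 3.62 ± 0.72 (SD, n = 6), a 2.14-fold difference that did not pass (log2 fold change -1.09, SE 0.31, adjusted p = 0.0775 from limma).

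Lymphocyte markers were given beside it. None of 8 T cell probe sets was called, and 7 of them were below 0. Cd8b1 had -0.98 (adjusted p = 0.0527 from limma), with every PN1a sample below every PN1b sample. Cd3e had -1.02 (adjusted p = 0.0822 from limma), Cd8a -0.42 and Cd4 -0.16. Their summed intensity ran from 54.3 to 125 in PN1a and from 62.2 to 148 in PN1b. In every sample the highest probe set of this sum was Thy1, the 1 above 0 (0.21). Of 7 B cell probe sets 1 of those of the coactivator Pou2af1 fell (-1.86), and the sum ran from 50.3 to 67.0 in PN1a and from 56.1 to 127 in PN1b. The other probe set of Pou2af1 had -0.17, and those of Ms4a1 -1.65 (adjusted p = 0.0583 from limma) and 0.33. Cd79a had -0.48, Cd79b -0.43 and Cd22 0.23. Of 3 probe sets listed for lymph node stroma 2 fell, that of Glycam1 (-4.16) and 1 of Madcam1 (-0.82). The other of Madcam1 had 0.31. The sum was 8.38 to 31.8 against 69.9 to 222 without overlap. In PN1b it was mostly Glycam1, at 5.89 to 7.69 (log2). Whether these probe sets read lymph node tissue in these glands was not tested. No marker of these lists was at the lowest value in all samples. Their part in the Ltb result was not tested.

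The receptor of Ltb, Ltbr, which is found on stromal, epithelial and myeloid cells, was among the steadiest members. It had 5.80, 5.78, 5.74, 5.81 and 5.88 in the PN1a samples and 5.55 to 6.03 in PN1b with a median of 5.74. The log2 fold change was 0.03 with a 95% interval of -0.31 to 0.38. Lymphotoxin alpha (Lta), the secreted cytokine whose gene lies on the other side of Tnf, had a pair of probe sets that differed in sign. The first had 0.65, 1.99, 1.40, 1.85 and 0.98 in PN1a and 1.29 to 2.32 in PN1b with a median of 1.82, a log2 fold change of -0.46 (adjusted p = 0.379 from limma). The second had a log2 fold change of 0.18, and neither passed.

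**Figure D2:**
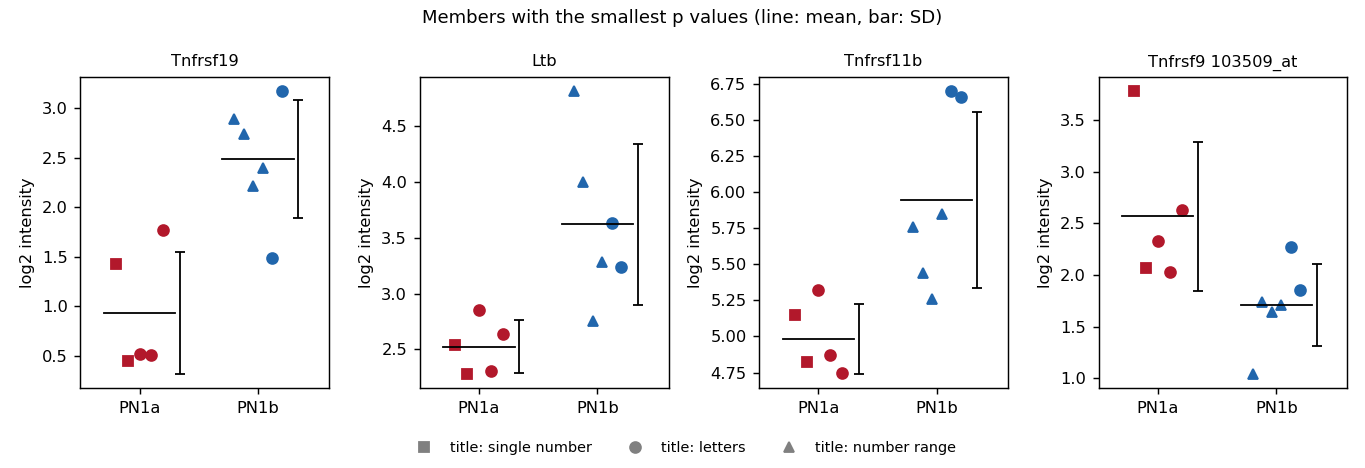
Log2 intensity (y axis) in each PN1a and PN1b sample (x axis) for Tnfrsf19, Ltb, Tnfrsf11b and a probe set of Tnfrsf9, with the shape of a point giving the form of the sample's title, lines the mean and bars the SD. The groups overlap in all panels, by PN1a 5 and PN1b 5 for Tnfrsf19 and by PN1a 3 and PN1b 3 for Ltb and Tnfrsf11b.

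TNF itself divided the PN1a glands. Its log2 intensity was 2.83 and 3.26 in PN1a 1 and PN1a 2, and 7.77, 8.00 and 7.58 in PN1a 3 to PN1a 5. The PN1b samples lay between these, at 5.49, 5.52, 5.22, 4.86, 6.67 and 5.80. No PN1a sample fell inside the range of PN1b. Over all samples the means were 5.89 ± 2.60 (SD, n = 5) and 5.59 ± 0.62 (SD, n = 6), with a log2 fold change of 0.29 (SE 0.90, 95% interval -1.65 to 2.24, adjusted p = 0.894 from limma). The SD of Tnf in PN1a stood at the percentile 99.9 of all probe sets, and in the first title ending the log2 fold change was -0.35.

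Without PN1a 1 and PN1a 2, a choice made after the data were seen, Tnf rose in PN1a by 2.19 on the log2 scale, or 4.56-fold (SE 0.33, adjusted p = 0.0073 from limma, 3 PN1a against 6 PN1b samples). It was then the 1 member called higher, against 0.684% of all probe sets, and no member was called lower, against 0.660%. The median over the members was then 0.04 and over all probe sets -0.03. The glands left out had the lowest Tnf of all samples. PN1a 3 to PN1a 5 all have the first title ending, which in PN1b only PN1b 5 and PN1b 6 have. Tnf was 6.67 and 5.80 in PN1b 5 and PN1b 6, above the 4.86 to 5.52 of PN1b 1 to PN1b 4. The part of the title ending in the 4.56-fold difference was not tested.

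Other members followed the same division of PN1a glands. PN1a 1 and PN1a 2 lay both below PN1a 3 to PN1a 5 in 13 of 39 members, where 19.1% of all probe sets did so, and both above them in 4, against 20.1% of all. With 2 against 3 samples an exact permutation test cannot go below p = 0.20, so these are descriptions. In 5 members, Tnf, Tnfsf9, Tnfsf10, Traf1 and Traf2, both lay below all other 9 samples, against 10.1% of all probe sets, a share near that of the members.

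Traf1, an adaptor that NF-κB induces, had 1.62 and 1.20 in PN1a 1 and PN1a 2, and 3.32, 3.87 and 3.97 in the lettered PN1a glands. In PN1b it ran from 2.63 to 3.98 with a median of 3.08. Its log2 fold change was -0.35 over all samples and 0.57 without PN1a 1 and PN1a 2 (adjusted p = 0.744 and 0.359 from limma), a change of sign with no call on either side.

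Tnfsf9 (4-1BB ligand), a costimulator on antigen-presenting cells, had 2.21 and 2.13 against 3.59, 3.97 and 3.16 in the same order, and 2.55 to 3.35 in PN1b. Its log2 fold change was 0.20 over all samples and 0.76 without these glands (adjusted p = 0.792 and 0.157 from limma). One of the Traf6 probe sets, for the adaptor of RANK, CD40 and Toll-like receptors, had 3.26 and 3.81 against 4.39, 4.73 and 4.74, and 3.71 to 4.54 in PN1b. In the opposite direction, Cd40lg, the ligand of CD40 on activated helper T cells, had 1.34 and 1.74 in PN1a 1 and PN1a 2 and 0.44, 0.98 and 0.95 in the lettered glands. Its values were near the lowest of the table in all samples, with a mean at percentile 2.83 of all probe sets. The others in this direction were Tnfrsf21 and one probe set each of Tnfrsf1a and Cd27. That of Cd27 had 4.38 and 4.74 against 4.14, 4.19 and 4.09.

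**Figure D3:**
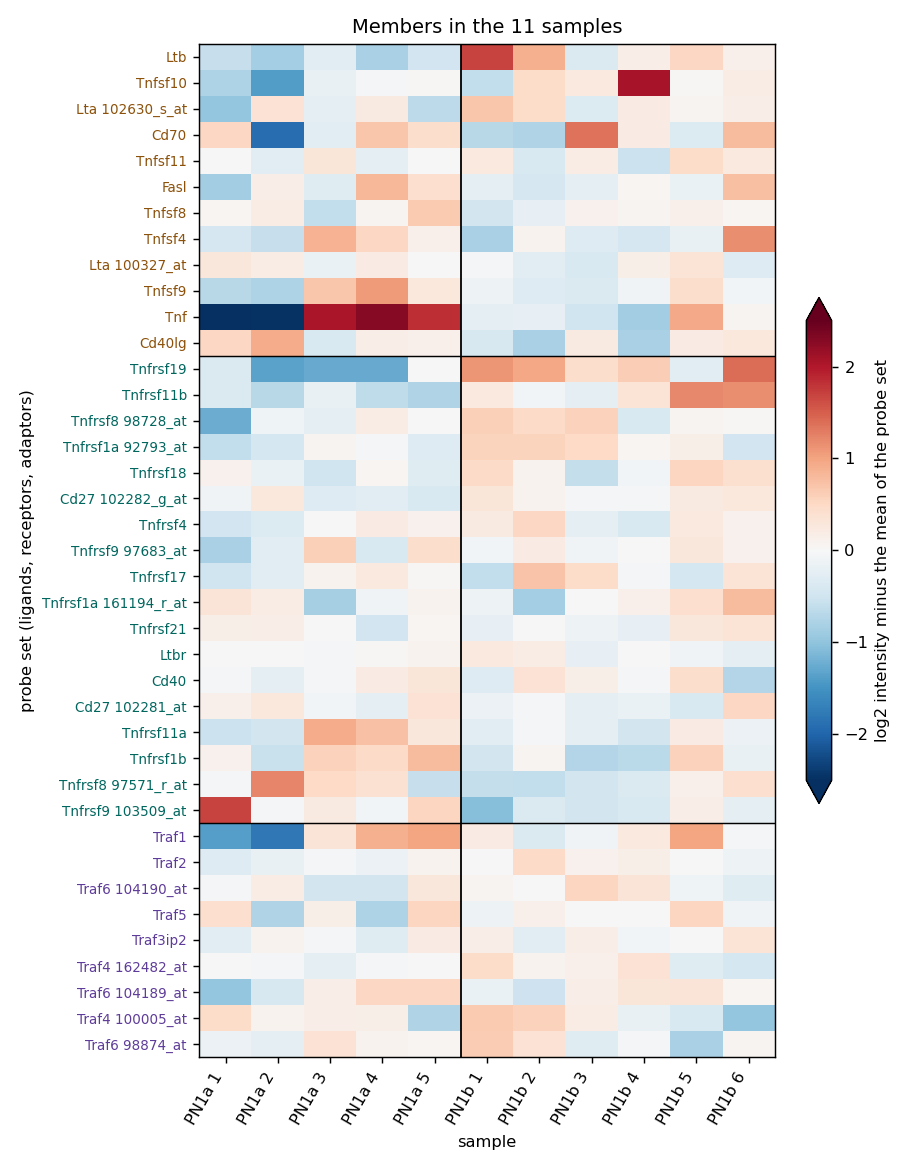
Log2 intensity minus the mean of the probe set (color, scale ends at -2.5 and 2.5) for the 39 members (y axis, ligands, receptors and adaptors from top to bottom) in the 11 samples (x axis, a line divides PN1a from PN1b). Tnf and Traf1 are low in PN1a 1 and PN1a 2 and higher in PN1a 3 to PN1a 5, while Ltbr hardly varies.

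The genes around NF-κB were set beside TNF. Of 26 probe sets of 21 measured NF-κB target genes none was called in either direction over all samples. At an unadjusted p under 0.05 there was 1, against 18.9% of all probe sets. The median difference of the 26 was -0.44 on the log2 scale, and 7 were above 0. In 20 of these 26, PN1a 1 and PN1a 2 lay below PN1a 3 to PN1a 5, where 19.1% of all probe sets did so. In 19 they lay below all other samples, against 10.1% of all. The cytokine Il6 had 1.03 and 1.07 in PN1a 1 and PN1a 2 against 8.34, 8.42 and 8.93 in the lettered PN1a glands and 7.45 to 8.77 in PN1b. The neutrophil chemokine Cxcl2 had 0.83 and 1.27 against 7.77, 7.85 and 7.92, and 5.53 to 7.88 in PN1b. Without the numbered glands the median was 0.69, and the growth factor Csf2 was the 1 called probe set, higher in PN1a by 2.08 (adjusted p = 0.0240 from limma).

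The subunits and inhibitors of NF-κB gave 16 probe sets of 12 measured genes, none of them called in either direction, with a median of -0.21 over all samples and 0.44 without the numbered glands. In 13 of 16 both numbered PN1a glands lay below the lettered ones, against 19.1% of all probe sets. One probe set of the inhibitor Nfkbia, itself induced by NF-κB, had 5.71 and 5.86 against 9.66, 9.87 and 9.64 in the lettered glands and 8.86 to 9.60 in PN1b. Nfkbie, another inhibitor, had the smallest adjusted p of the list, with a log2 fold change of 0.62 (adjusted p = 0.105 from limma). Among 27 probe sets of 21 measured adaptors, kinases and caspases downstream of the receptors none was called. At an unadjusted p under 0.05 there were 9, against 18.9% of all probe sets. The median of the 27 was -0.15 over all samples and 0.07 without the numbered glands. Tab2 had -0.73 (adjusted p = 0.0859 from limma), one of the probe sets of Birc2, an inhibitor of apoptosis bound to TRAF2, -0.97 (adjusted p = 0.120 from limma), and the TRAF binding protein Tank -1.20 (adjusted p = 0.123 from limma). Without the numbered glands these differences were smaller, at -0.56 for Tab2, -0.47 for Birc2 and -0.52 for Tank. The other probe set of Birc2 had -0.42 over all samples and -0.09 without them.

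Other cell types were read from their markers beside these values. Of 13 macrophage probe sets 2 rose, 1 of the 2 of Cd68 (log2 fold change 1.11) and 1 of those of C1qb (2.20), and 11 were above 0, with a summed intensity of 630 to 1025 in PN1a and 310 to 844 in PN1b. The other probe sets of Cd68 and C1qb had 0.04 and 0.10. One probe set of Csf1r had 1.26 (adjusted p = 0.0637 from limma), with every PN1a sample above every PN1b sample, and the other 0.30. Mrc1 had 1.21, and the probe sets of Adgre1 1.23 and -0.07. In PN1b the highest probe set of the sum was Cd14, at 7.68 to 9.40 (log2). Cd14 had 6.82 and 7.74 in the numbered and 9.34, 9.41 and 9.47 in the lettered glands, with a log2 fold change of 0.20. Without the numbered glands none of the 13 was called, with 1.22 for Cd68 and 1.55 for C1qb (adjusted p = 0.0726 and 0.189 from limma), and the median of the list was 0.85 with and 0.91 without them. Both numbered glands lay below the lettered ones in 2 of these 13, all 4 endothelial probe sets, 4 of 7 luminal, 4 of 8 mast cell, 3 of 8 T cell, 3 of 11 fibroblast, 2 of 4 adipocyte, 1 of 7 B cell, 1 of 5 basal and 1 of 3 lymph node stroma ones, where the share of all probe sets was 19.1%. Both lay above the lettered ones in 2 of the 13 macrophage, 1 of 7 B cell and 1 of 5 basal probe sets and in none of the other marker lists, against 20.1% of all. The macrophage ones were C1qa, with 8.45 and 7.68 against 5.87, 6.05 and 3.63, and the called one of C1qb. The latter had 7.48 and 6.43 against 5.65, 5.99 and 4.31. For the endothelial list the summed intensity ran from 38.9 to 156 in PN1a and from 102 to 166 in PN1b, that of the luminal list 214 to 1799 and 1064 to 1699, and that of the fibroblast list 826 to 3015 and 1939 to 3498. That of the adipocyte list was 31.5 to 143 and 187 to 241, and that of the mast cell list 51.5 to 132 and 97.0 to 199. In every sample the highest probe set of the mast cell sum was Kit, at 5.52 to 6.73 (log2) in PN1b. Of the 7 luminal probe sets 3 were above 0, with a median of -0.27, and 1 of the 2 of the keratin Krt19 rose (3.74) while Krt8 had -1.25 and Krt18 -1.40 and -0.33 without passing. Of the 4 adipocyte probe sets 1 of the 2 of the lipase Lpl fell (-1.81, and -0.94 without the numbered glands). In PN1b that probe set was the highest of the adipocyte sum, at 7.41 to 7.84 (log2). The other of Lpl had -0.66, Fabp4 -0.16 and Adipoq 0.27, or 0.67 without the numbered glands. None of the endothelial, fibroblast and mast cell probe sets was called. The part of cell content or of RNA quality in the TNF values was not tested.

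**Figure D4:**
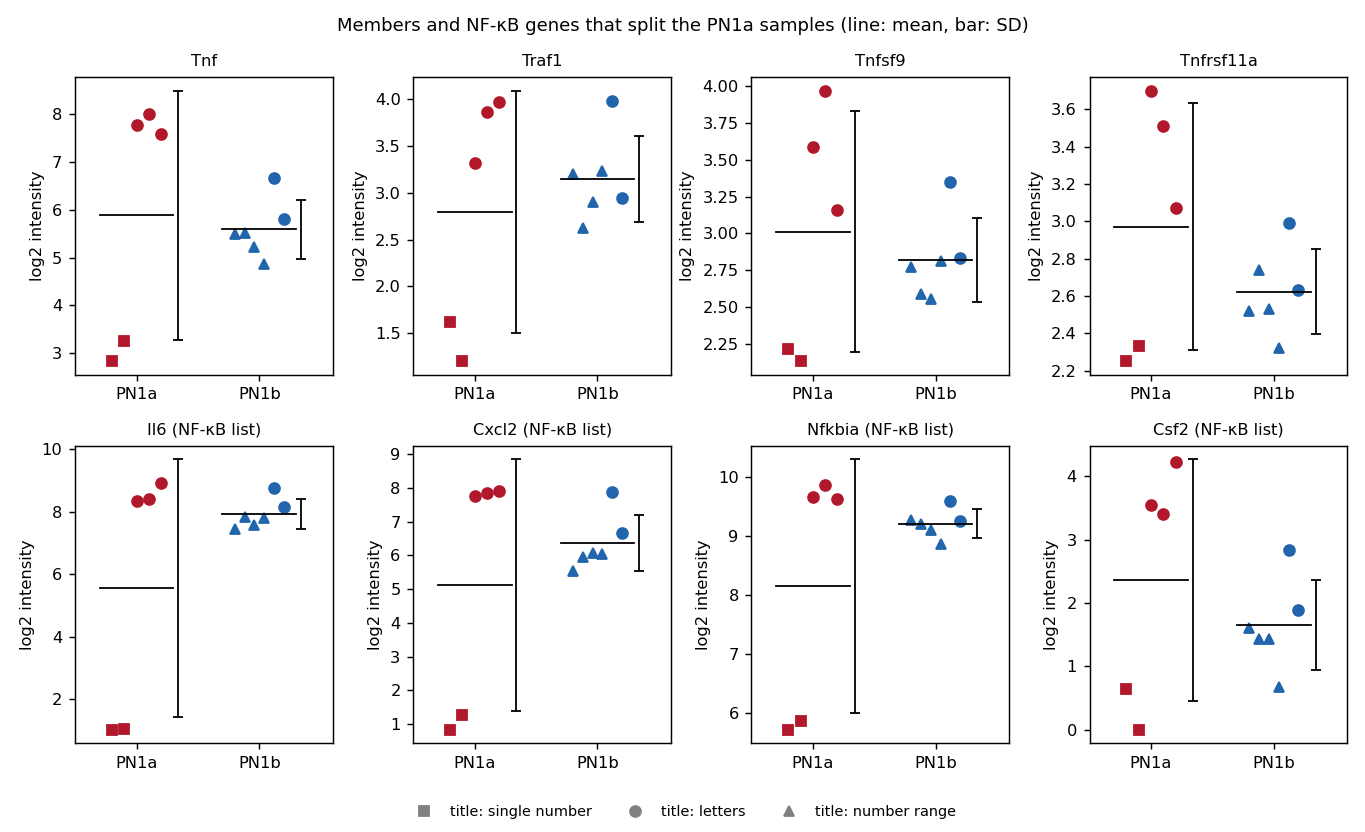
Log2 intensity (y axis) in each PN1a and PN1b sample (x axis) for the members Tnf, Traf1, Tnfsf9 and Tnfrsf11a and for Il6, Cxcl2, Nfkbia and Csf2 of the NF-κB lists, with the shape of a point giving the form of the sample's title, lines the mean and bars the SD. The 2 squares, PN1a 1 and PN1a 2, are the lowest PN1a points in every panel, and for Tnf the 3 PN1a circles lie above every PN1b sample.

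The TNF receptors proper did not pass the test. Tnfrsf1a (TNFR1), the death domain receptor present on most cells, had 5.90, 6.08, 6.59, 6.50 and 6.20 in PN1a and 6.05 to 7.08 in PN1b with a median of 6.84, in one probe set. Its log2 fold change was -0.49 (SE 0.23, limma adjusted p = 0.262), against -0.13 in the other. Tnfrsf1b (TNFR2), the receptor of leukocytes and endothelium, had 4.59, 3.93, 5.07, 4.97 and 5.27 in PN1a and 3.75 to 5.07 in PN1b with a median of 4.17. Its log2 fold change was 0.51 (SE 0.29, adjusted p = 0.369 from limma), and 0.85 without the numbered glands (adjusted p = 0.182 from limma). For TNFR2 the high PN1b sample was PN1b 5 and the low PN1a sample PN1a 2.

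Receptors of lymphocyte costimulation varied without a common direction. For Tnfrsf9 (4-1BB) one probe set had 3.78, 2.07, 2.33, 2.03 and 2.63 in PN1a and 1.04 to 2.27 in PN1b with a median of 1.73, a log2 fold change of 0.86 (SE 0.31, limma adjusted p = 0.153). PN1a 1 was the highest sample, and the other probe set had -0.16, or 0.14 without the numbered glands. Tnfrsf8 (CD30), a receptor of activated lymphocytes, had -0.51 in a probe set with 0.86, 2.00, 1.89, 2.30 and 2.10 in PN1a and 1.73 to 2.71 in PN1b. Its other probe set had 0.54, with 1.91, 3.17, 2.45, 2.34 and 1.39 in PN1a and 1.35 to 2.38 in PN1b. Neither passed (adjusted p = 0.341 and 0.364 from limma). Cd27, a receptor of T and memory B cells, had -0.29 and 0.16, Tnfrsf4 (OX40) -0.18, Tnfrsf18 (GITR), found on regulatory T cells, -0.30, and Tnfrsf17 (BCMA), a receptor of plasma cells, -0.15.

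CD40, the receptor through which helper T cells activate B cells, macrophages and dendritic cells, had 3.29, 3.08, 3.26, 3.52 and 3.62 in PN1a and 2.58 to 3.76 in PN1b with a median of 3.36. The log2 fold change was 0.07 with a 95% interval of -0.42 to 0.56, and the PN1a values lay inside the range of PN1b. Tnfrsf21 (DR6), a death domain receptor, had -0.04 (95% interval -0.44 to 0.37).

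Among the other ligands, Tnfsf10 (TRAIL), which triggers death receptors, had 0.62, 0.00, 1.22, 1.37 and 1.42 in PN1a and 0.78 to 3.46 in PN1b with a median of 1.62. PN1a 2 was at the lowest value of the table and PN1b 4 was the highest sample, so the log2 fold change of -0.87 (adjusted p = 0.276 from limma) rests partly on a floor. Without the numbered glands it was -0.46. Cd70, the ligand of CD27, ranged from 0.37 to 2.97 in PN1a and from 1.52 to 3.63 in PN1b, with a log2 fold change of -0.20. Fasl, Tnfsf8 (CD30 ligand) and Tnfsf4 (OX40 ligand) had 0.09, 0.12 and 0.18. Of 4 probe sets of the related genes Fas and Eda, outside the symbol rule, none was called and the median was 0.23. Fas, the receptor of Fasl, had 0.90 and 0.43 in PN1a 1 and PN1a 2 against 3.76, 4.08 and 4.41 in the lettered glands and 2.96 to 4.90 in PN1b.

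The remaining adaptors differed little. Traf2, the main adaptor of the TNF receptors, had a log2 fold change of -0.23 (95% interval -0.59 to 0.13), Traf4, an adaptor abundant in epithelia, -0.10 and 0.04 in its probe sets, Traf5, a relative of Traf2, -0.15 and Traf3ip2 -0.12. The Traf6 probe sets had -0.19, -0.06 and 0.04. All 9 adaptor probe sets lay within 0.5 of 0. Without the numbered glands the sign also turned for Tnfrsf4 (0.03), Tnfrsf17 (0.05), Cd70 (0.19), one probe set of Traf6 (-0.06 to 0.37) and one of Traf4 (0.04 to -0.12), and Tnfsf4 had 0.58, with none of them called.

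Members that neighbor each other in the genome gave these values side by side. Of the chromosome 17 neighbors Ltb, Tnf and Lta, in this order of RefSeq genes, Ltb was -1.09 and Tnf 0.29, and only Tnf divided the PN1a glands. Tnfsf9 and Cd70, also neighbors, were 0.20 and -0.20. On chromosome 4 Tnfrsf4 and Tnfrsf18 were -0.18 and -0.30, and Tnfrsf1b and Tnfrsf8, likewise neighbors there, were 0.51 and -0.51 or 0.54.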

How the data were processed

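Whole mammary glands with PN1a (5 samples) or PN1b (6 samples) lesions were hybridized to the Affymetrix MG_U74Av2 array. In dChip the authors modeled PM-MM signals and applied quantile normalization, and 1 table of linear intensity values was deposited. Scanner files and detection calls were not used here. Precision is limited by how many arrays there are.

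From the deposited intensity log2 was taken without a pseudocount, and 66 array controls were left out. The table ran from 1 to 1938, and 0.817% of values were at the lowest value. Symbols came from the array annotation, updated by gene identifier (10833 probe sets with 1 symbol, 396 with several, 1193 with none). Groups came from the sample labels. The difference between PN1a and PN1b was tested with limma 3.58.1 under R 4.3.3 (lmFit, eBayes, two-sided, no covariate, Benjamini-Hochberg over 12422 probe sets). The fit was also run on simulated data with independent normal noise, which lack the division of the PN1a glands and the title endings. At most 1.24% of values were shared by any pair of samples. Plots used matplotlib 3.10.9 in Python 3.11.15.

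The members, the gene lists, the rule for named genes and the alternatives were chosen with earlier results of these data known, and leaving out PN1a 1 and PN1a 2 was added after the data were seen. Every member is named. The rule gave sample values for those called, the 10 with the smallest p and Tnf, Tnfsf11, Tnfrsf11a, Tnfrsf11b, Cd40 and Ltbr, with each PN1a value printed and PN1b, except for Tnfrsf19, Tnfrsf11b and Tnf, as a range, mostly with its median. Traf1, Tnfsf9, Traf6, Cd40lg, Fas, Il6, Cxcl2, Nfkbia and Trp63 were chosen after their values were seen. So were the sample values of one Cd27 probe set and the cell type markers given with values. Promoters came from RefSeq, which lists 24 of the 31 member genes in the table used.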

Additional observations from a re-analysis of the deposited data

Results flagged for a closer look

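In 78 groups of samples tested for a value far from the others, 4 held one, where chance flags about 1 in 20. In PN1a the lowest values were 4.31 for Tnfrsf21 in PN1a 4 (the next was 4.81), 5.33 for one Traf4 probe set in PN1a 3 and 0.86 for one Tnfrsf8 probe set in PN1a 1 (the next was 1.89). In PN1b the highest value of Tnfsf9 was 3.35 in PN1b 5, with 2.83 next.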

How the results depend on the processing

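The call of Tnfrsf19 was the 1 lower member, and it held after a further quantile normalization, with samples centred on their median, with no or a 2-fold threshold, with a trended robust eBayes and with probe sets averaged by gene. The count of lower members was 0 with the methods' t-test after Benjamini-Hochberg, within the first title ending, with the ending as a random block, for log2(value + 16) and without PN1a 1 and PN1a 2, and 2 with the methods' t-test at p under 0.01, which adds Tnfrsf11b. With 1 sample left out it was 0 to 1. With the ending as a fixed block and with a filter at the median level it was 1, Tnfrsf11b in place of Tnfrsf19 (log2 fold change -0.96 and adjusted p = 0.0485 from limma with the filter, which removes Tnfrsf19). No member was called higher under any alternative but the one without PN1a 1 and PN1a 2, where Tnf made it 1. Of the pathway lists 0 were called in either direction, and elsewhere 1 was higher and 1 lower with the methods' t-test at p under 0.01 (Nfkbie and Tab2), 1 lower with the filter (Tab2), 1 higher without PN1a 1 and PN1a 2 (Csf2) and, with 1 sample left out, 0 to 1 higher (Bid without PN1b 5). The sign of Tnf turned with the ending as a block and within the first ending (-0.35 in both). With 1 sample left out Tnf ranged from -0.23 to 1.06, with -0.18 without PN1a 3 and -0.13 without PN1a 5, Cd40 from -0.076 to 0.16 with -0.00083 without PN1a 5, Ltbr from -0.01 to 0.086 with -0.0040 without PN1b 3 and Tnfsf11 from -0.18 to 0.016, none of them called. The mean of the probe sets of Tnfrsf8 was 0.016, against -0.51 for one of them alone. Over all probe sets 108 were higher and 201 lower, and the alternatives gave 6 to 271 and 12 to 442, with 12 and 19 for the fixed block. The cause of these changes was not tested. No paired analysis was possible because the sample titles carry no replicate number that both groups share.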
